A study of Mus musculus with 4 samples.

Results

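Genes that copy the genome and make its building blocks were measured in ureter tumors and in normal ureter of mice. The set holds 41 genes listed by function, and it was chosen with earlier results of these data known. Its roles are the replicative helicase, origin licensing factors, DNA polymerases with primase, and the sliding clamp and its loader. The others are single-strand binding and Okazaki fragment factors, chromatin assembly factor and enzymes of deoxynucleotide synthesis. A member was any probe set that the platform annotation ties to only 1 of these genes. This gave 87 of the 45101 probe sets on the array, for 40 of the 18193 genes that have such a probe set. Chaf1a had none and was not analysed here.

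There were 2 ureter tumor samples and 2 normal ureter samples, each on 1 one-colour Affymetrix mouse expression array. All were C57Bl/6 mice of 6 to 8 weeks, and the labels speak of isolated ureter epithelium. On all 4 samples the treatment text names R26rtTA;teto-Cre;Ncstnf/f mice that received doxycycline for 1 week from 3 weeks of age, which turns on Cre and deletes Ncstn, a subunit of gamma-secretase, the enzyme that releases active Notch. The R26 locus is expressed in most cell types, so Cre is not tied to urothelium in this model, and the labels do not say which samples carried the alleles. The study asked what Notch signaling does in urothelial cancer. Samples are called biological replicates with no animal named, so the p-values rest on the spread between arrays, which may be technical in part.

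In each S phase, origin recognition proteins with Cdc6 and Cdt1 load rings of Mcm2 to Mcm7 onto DNA, and Cdc45 with the GINS complex turns each ring into an active helicase. Polymerase alpha with primase starts each strand, Rfc loads the clamp Pcna, and polymerases delta and epsilon extend the strands while Fen1 and Lig1 join the fragments. Many of these genes are transcribed at the entry to S phase by E2F factors, so their mRNA is a common readout of the share of cycling cells. Urothelium normally turns over slowly. In bulk tissue, more cells of a kind and more mRNA in each cell cannot be told apart.

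The starts of 4 of the genes are printed because these genes stand at the ends of the range found. Rrm2 and Mcm5 had the highest differences of tumor over normal among the tested genes of the set, and Orc6 and Rpa3 the lowest. Each is the RefSeq window of 300 bases on mouse build GRCm38.p6, from 250 bases before the transcription start to 50 after it, on the strand of the gene. Capitals mark matches, on either strand, to an E2F motif (TTCCCGC or TTCGCGC or TTGGCGC or TTGCCGC) or to the CCAAT box. The windows are chr12:24708004-24708303 on the plus strand for Rrm2, chr8:75109259-75109558 on the plus strand for Mcm5, chr8:85299382-85299681 on the plus strand for Orc6 and chr6:8259092-8259391 on the minus strand for Rpa3.
Rrm2: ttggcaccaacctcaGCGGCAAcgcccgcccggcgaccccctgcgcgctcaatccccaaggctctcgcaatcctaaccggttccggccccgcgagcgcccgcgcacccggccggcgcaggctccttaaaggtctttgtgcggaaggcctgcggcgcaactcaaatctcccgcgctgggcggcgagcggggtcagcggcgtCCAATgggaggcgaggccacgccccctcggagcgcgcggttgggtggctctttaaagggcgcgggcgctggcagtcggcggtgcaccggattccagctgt
Mcm5: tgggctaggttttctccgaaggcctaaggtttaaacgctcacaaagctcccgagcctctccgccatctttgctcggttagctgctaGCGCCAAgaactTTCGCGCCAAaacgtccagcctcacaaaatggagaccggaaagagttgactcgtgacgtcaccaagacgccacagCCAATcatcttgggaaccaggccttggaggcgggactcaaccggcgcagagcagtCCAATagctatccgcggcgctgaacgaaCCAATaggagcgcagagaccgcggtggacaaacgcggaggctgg
Orc6: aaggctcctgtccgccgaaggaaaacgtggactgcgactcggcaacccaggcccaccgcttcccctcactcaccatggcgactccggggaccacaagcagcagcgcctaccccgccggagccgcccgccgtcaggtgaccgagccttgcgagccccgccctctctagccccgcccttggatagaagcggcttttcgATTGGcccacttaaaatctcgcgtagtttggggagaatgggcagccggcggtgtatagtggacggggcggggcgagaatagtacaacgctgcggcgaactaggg
Rpa3: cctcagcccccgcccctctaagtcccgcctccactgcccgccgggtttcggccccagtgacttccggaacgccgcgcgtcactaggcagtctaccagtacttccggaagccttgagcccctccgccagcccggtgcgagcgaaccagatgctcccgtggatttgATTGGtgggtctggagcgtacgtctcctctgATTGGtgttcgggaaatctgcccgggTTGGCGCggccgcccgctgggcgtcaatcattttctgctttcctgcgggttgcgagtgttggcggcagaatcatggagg

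The arrays differed in more than these genes. Over the 13046 genes tested, 187 passed the limma test, and 23.2% differed at least 2-fold between the tumor arrays, against 3.52% between the normal arrays. The ratio of 3' to 5' signal of Gapdh was 1.51 and 1.44 on the tumor arrays, against 0.92 and 0.923 on the normal arrays. That of Actb went the other way, with 2.47 and 2.63 on the tumor arrays, against 2.90 and 2.82. All 18 urothelial markers were measured, and both tumors lay above normal in 2 of them and below in 10. Upk3a, a uroplakin of the umbrella cell surface, had signals of 69.8 and 52.3 in the tumors, against 5987 and 11462 in normal ureter. Epcam, a general epithelial marker, had 17023 and 9994 in the tumors, against 4002 and 3371. Cdh1, another epithelial marker, had 13206 and 9908 in the tumors, against 5777 and 6945. The keratin Krt18 lay below normal, with 3099 and 5390 in the tumors, against 13581 and 20882. For the keratins Krt5, Krt7, Krt8 and Krt19 the groups overlapped. The uroplakins, which define umbrella cells, were low on both tumor arrays.

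Most replication genes were higher in tumors, but no single gene passed the test. Signals are linear MAS5 values, and differences are tumor minus normal on the scale of log2(signal + 16). Of the 40 genes, 38 were bright enough to test, and 34 of them, or 89.5%, had a positive difference, against 51.8% of all genes. The range over the 38 was -0.59 to 2.74. The median difference was 0.71, against 0.03 over all genes tested. Of the 38, 0 passed in either direction at an adjusted p under 0.05, where 0.491% of all genes were called higher and 0.943% lower. At an unadjusted p under 0.05, 10 were higher, or 26.3%, and 0 lower, against 10.6% and 10.9% of all genes. In 25 genes, or 65.8%, both tumors exceeded both normal samples, against 29.4% of all genes, and in 3 both lay below, or 7.89%, against 27.7%. Centring each array on its median moved the median of all genes to 0.22 and that of the replication genes to 0.90. The gap between the medians, 0.68, cannot change, because centring shifts all genes of an array alike. The counts above and below became 28 and 0.

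**Figure D1:**
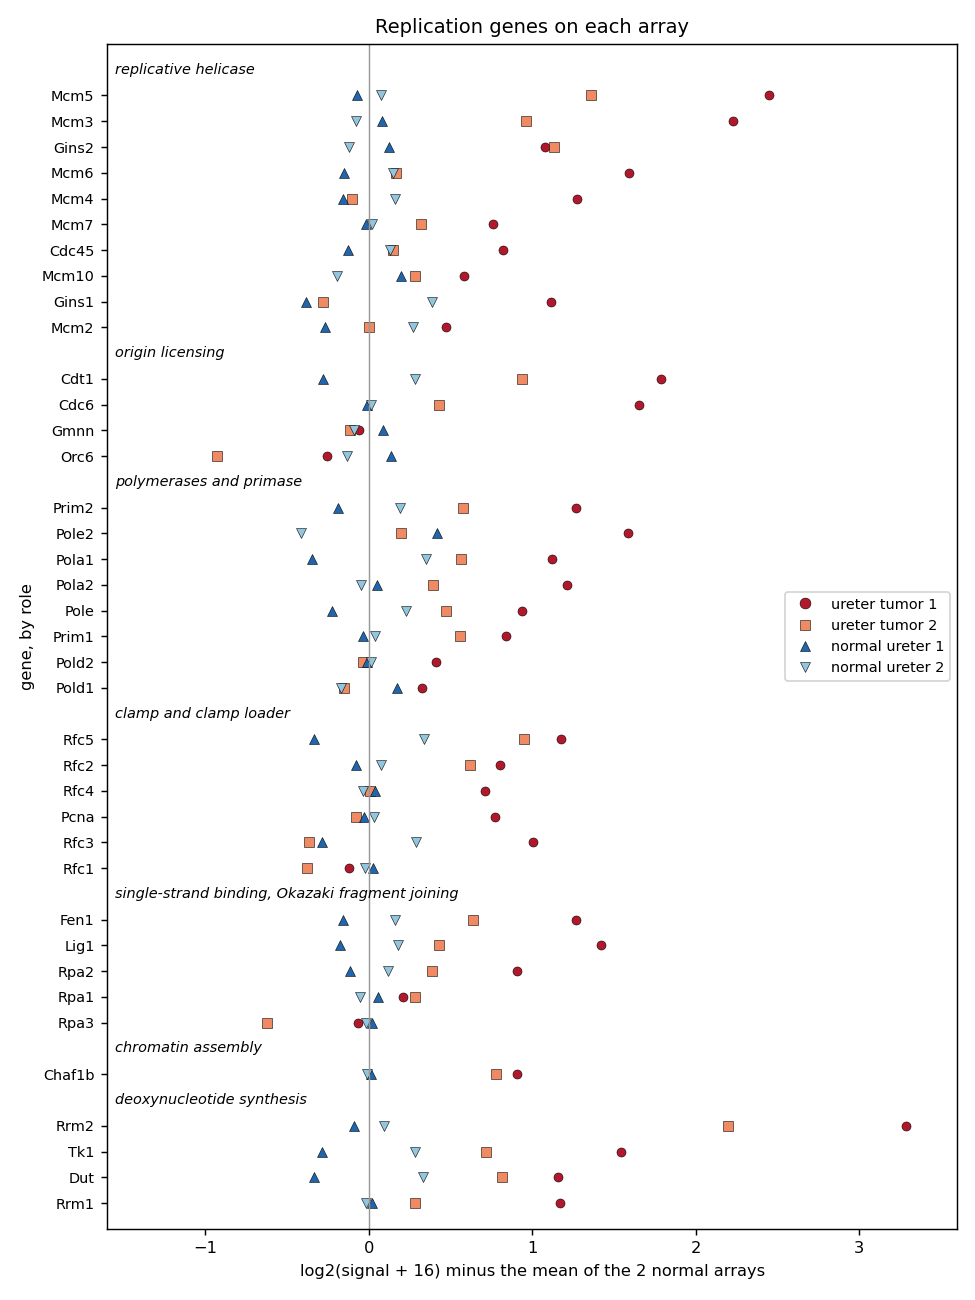
Each row is 1 of the 38 tested genes, grouped by role, with 1 point for each of the 4 arrays: log2(signal + 16) minus the mean of the 2 normal arrays, so 0 is the normal mean. In 25 genes both tumor points lie right of both normal points, and tumor 1 lies right of tumor 2 in all genes but Gins2 and Rpa1.

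Ribonucleotide reductase, which makes deoxynucleotides from ribonucleotides, held the largest difference of the set. Rrm2, the subunit whose level limits the enzyme and follows S phase, had signals of 2569 and 1203 in the tumors, against 233 and 267 in normal ureter. This is a difference of 2.74 (SE 0.43, n = 2 per group, adjusted p = 0.08 by limma), or a 6.68-fold ratio. Both tumors stood well above both normal samples, and the tumors also stood apart from each other. The other probe sets of Rrm2 gave 2.63 and 1.00, with both tumors above both normal samples in each. Rrm1, the large subunit, had 1318 and 703 in the tumors, against 584 and 568, and a difference of 0.73 (adjusted p = 0.337).

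The salvage and cleansing enzymes were higher to a smaller extent. Tk1, the thymidine kinase of S phase, had signals of 364 and 198 in the tumors, against 91 and 143 in normal ureter (difference 1.13, SE 0.45, adjusted p = 0.258). Dut, which removes dUTP so that uracil is kept out of DNA, had 1249 and 982 in the tumors, against 434 and 698 (difference 0.99, SE 0.32, adjusted p = 0.2). All 4 tested genes of this role had both tumors above on their brightest probe set, against 29.4% of all genes, and their median was 1.06. Tyms, thymidylate synthase, was too dim to test on all 4 of its own probe sets, the brightest giving 45.6 and 48.3 in the tumors, against 44.8 and 27.8. A further probe set that is also tied to the Tyms pseudogene was not used here.

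All 10 genes of the replicative helicase had positive differences, against 51.8% of all genes, from 0.24 to 1.90, with a median of 0.56. In 7 of them both tumors lay above both normal samples, against 29.4% of all genes. Mcm5, a subunit of the Mcm2 to Mcm7 ring, had signals of 1993 and 930 in the tumors, against 335 and 371 in normal ureter (difference 1.90, SE 0.43, n = 2 per group, adjusted p = 0.128). Mcm3, another ring subunit, had 1335 and 547 in the tumors, against 289 and 258 (difference 1.59, SE 0.49, adjusted p = 0.188). On these probe sets the lower tumor was well above the higher normal sample. Another bright probe set of Mcm3 gave 676 and 203 in the tumors, against 227 and 205, with tumor 2 below both normal samples.

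On their brightest probe sets the other ring subunits split by how far tumor 2 left the normal range, but other probe sets did not keep this split. Mcm7 had signals of 3497 and 2567 in the tumors, against 2031 and 2082 in normal ureter, a difference of 0.54 with no overlap. Its dimmest probe set gave 842 and 471 in the tumors, against 316 and 475, so the groups overlapped. The remaining probe sets of Mcm7 showed no overlap. Mcm6 had 1472 and 537 in the tumors, against 429 and 532, so tumor 2 was barely above the higher normal sample (difference 0.88, adjusted p = 0.421). Another bright probe set of Mcm6 gave 661 and 436 in the tumors, against 305 and 354, with tumor 2 clear of both normal samples. Mcm4 had 2423 and 922 in the tumors, against 887 and 1109, and tumor 2 lay between the normal samples. The dimmer probe set of Mcm4 gave 1604 and 1202 in the tumors, against 429 and 506, with no overlap. Mcm2 also differed by probe set. Its brighter one gave 476 and 338 in the tumors, against 278 and 411, a difference of 0.24. The dimmer one gave 643 and 459 in the tumors, against 124 and 269, a difference of 1.48.

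Among the factors that activate the ring, Gins2 was the most even. This GINS subunit had signals of 318 and 331 in the tumors, against 157 and 129 in normal ureter (difference 1.10, SE 0.28, adjusted p = 0.149). The tumors nearly coincided. Gins1 had 379 and 134 in the tumors, against 124 and 222, so the groups overlapped. Cdc45 and Mcm10, which help form and anchor the active helicase, differed by 0.48 and 0.43 (adjusted p = 0.538 and 0.526).

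Origin licensing genes did not move in one direction. Cdt1, which brings the ring to origins, had signals of 1945 and 1073 in the tumors, against 452 and 674 in normal ureter (difference 1.36, SE 0.40, adjusted p = 0.177). Cdc6, its partner in loading, had 280 and 111 in the tumors, against 77.2 and 78.8, a difference of 1.04 (adjusted p = 0.34). Both genes lay above the normal range on both tumor arrays, Cdc6 only slightly so on tumor 2. Gmnn, geminin, which binds Cdt1 and blocks a second round of loading, had 830 and 801 in the tumors, against 923 and 815. Its difference was -0.09, and 0.11 when arrays were centred on their medians. Orc6, a subunit of the origin recognition complex, had 406 and 249 in the tumors, against 537 and 442, the lowest difference of the set at -0.59 (SE 0.34, adjusted p = 0.388). Orc1, the largest subunit of that complex, was too dim to test, and its probe sets disagreed, with 5.71 and 31.2 in the tumors, against 98.5 and 81.8 on the brighter one, and with 115 and 31.9 in the tumors, against 7.67 and 55.1 on the dimmer one.

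All 8 polymerase and primase genes had positive differences, against 51.8% of all genes, from 0.09 to 0.92, with a median of 0.75. Prim1, the catalytic subunit of primase, had signals of 697 and 570 in the tumors, against 373 and 393 in normal ureter (difference 0.70, SE 0.23, n = 2 per group, adjusted p = 0.207). Prim2, its regulatory subunit, and the polymerase alpha genes Pola1 and Pola2 differed by 0.92, 0.84 and 0.80 (adjusted p = 0.274, 0.316 and 0.312). These genes start DNA chains together, and in all 4 both tumors lay above both normal samples, against 29.4% of all genes. Of the polymerases that extend the chains, the epsilon genes Pole and Pole2 had differences of 0.70 and 0.89. Pole2 had 714 and 263 in the tumors, against 309 and 166, so the groups overlapped. The delta genes Pold1 and Pold2 had 0.09 and 0.19. Another bright probe set of Pold1 gave 0.50, with both tumors above both normal samples. Pold2 had 628 and 457 in the tumors, against 464 and 472, with tumor 2 just under both normal samples.

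The clamp and its loader were divided. Pcna, the clamp that holds polymerases on DNA, had signals of 8276 and 4588 in the tumors, against 4745 and 4943 in normal ureter. Tumor 1 stood above both normal samples and tumor 2 below both, and the difference was 0.35 (SE 0.34, adjusted p = 0.601). Of the loader genes, Rfc5 had 639 and 545 in the tumors, against 214 and 350 (difference 1.06, SE 0.33, adjusted p = 0.191). Rfc2 had 1046 and 921 in the tumors, against 563 and 627 (difference 0.71, SE 0.20, adjusted p = 0.175). On these probe sets the tumors were close to each other and clear of the normal samples. The dimmer ones of Rfc2 were less even, with 424 and 243 in the tumors, against 191 and 67.9, and with 228 and 83.2 in the tumors, against 131 and 70.8, where the groups overlapped. Rfc3 and Rfc4 had differences of 0.32 and 0.36 with overlap between groups. Rfc1, the large subunit, had 804 and 670 in the tumors, against 893 and 862, a difference of -0.25. It was the only gene with several bright probe sets whose differences had both signs, from -0.31 to 0.20.

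Among genes of the lagging strand, Fen1, the nuclease that trims Okazaki fragments, had signals of 1128 and 724 in the tumors, against 410 and 514 in normal ureter (difference 0.95, SE 0.31, n = 2 per group, adjusted p = 0.204). Its other bright probe set gave a larger difference of 1.91. Lig1, the ligase that seals them, had 1001 and 496 in the tumors, against 319 and 414, a difference of 0.93 (adjusted p = 0.303). The single-strand binding genes were less far from normal. Rpa1 had 3389 and 3561 in the tumors, against 3042 and 2823, a difference of 0.24. Rpa2 had a difference of 0.65. Rpa3, the smallest subunit, had 1119 and 757 in the tumors, against 1188 and 1161, a difference of -0.35 (adjusted p = 0.499). Chaf1b, a subunit of the factor that places histones on new DNA, had 156 and 141 in the tumors, against 76.6 and 75 (difference 0.84, SE 0.32, adjusted p = 0.245), with close agreement within both groups.

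Of the 87 probe sets, 65 were above the signal limit, and 60 of these had a positive difference and 5 a negative one. Among 21 genes with at least 2 such probe sets, 20 had the same sign in all of them. The size of the difference varied between probe sets of a gene. Rrm2 spanned 1.74 log2 units over its 3 bright probe sets, Mcm2 spanned 1.25, and Fen1 and Mcm4 0.96 each, while Dut and Rfc3 spanned 0.01 and 0.00. The small span of Dut does not show close agreement. Its dimmer probe set, with a mean signal of 67.5, gave 90.0 and 115 in the tumors, against 8.85 and 125. That difference rests on 1 dim normal value. In 3 genes, Mcm2, Mcm4 and Pold1, the brightest probe set showed overlapping groups and another one had both tumors above. The opposite held in 6 genes, Dut, Mcm3, Mcm7, Rfc2, Rpa2 and Rrm1, where the brightest had both tumors above and another overlapped.

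**Figure D2:**
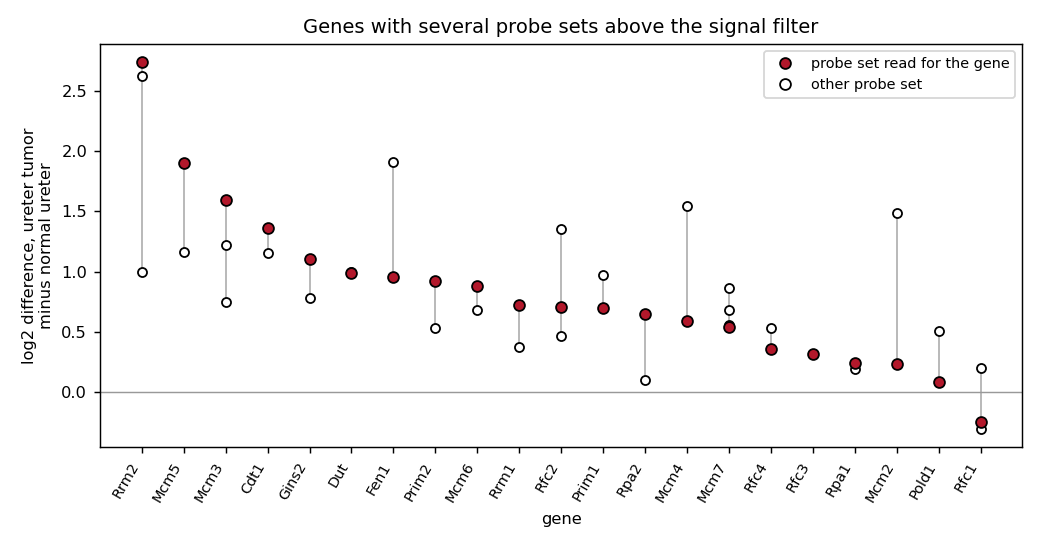
Log2 difference of ureter tumor minus normal ureter for each probe set above the signal limit, in the 21 genes with several. Filled points are the probe sets read for the gene, open points the others; Rfc1 alone crosses 0.

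The tumors were unlike each other in the extent of the pattern. Over the 38 genes the median deviation from the normal mean was 1.04 on tumor 1 and 0.35 on tumor 2, while over all genes tested it was 0.01 and 0.04. Tumor 1 was above tumor 2 in 36 genes, or 94.7%, against 51.2% of all genes, and the exceptions were Gins2 and Rpa1. In 9 genes (Mcm6, Gins1, Pole2, Mcm4, Rfc3, Mcm3, Cdc6, Mcm5 and Rrm2) tumor 1 exceeded tumor 2 at least 2-fold, which is 23.7%, against 10.7% of all genes. None of the 38 differed 2-fold between the normal samples. On tumor 1, 34 genes lay above both normal samples, and on tumor 2, 25 did, which is 89.5% and 65.8%, against 44.5% and 45% of all genes.

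The limma test was also run with 1 tumor array left out, where the lone tumor is assumed to vary like the normal samples. Without tumor 1, 8 genes passed as higher (Cdt1, Dut, Gins2, Mcm3, Mcm5, Rfc2, Rfc5 and Rrm2), which is 21.1% of the 38, close to the 17.4% of all genes called higher there. Orc6 and Rpa3 passed as lower, or 5.26%, against 15.5% of all genes. Without tumor 2, 25 genes passed as higher, or 65.8%, against 21.1% of all genes, and 0 as lower, against 21.1%. All 8 genes called without tumor 1 were among these 25, and 8.29% of all genes were called higher in both fits. Rrm2 had the smallest adjusted p in each, 7.36e-06 and 1.11e-08. These calls compare 1 tumor with the normal samples and not tumors as a group.

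Markers of other cells moved with the tumors as well, and with tumor 1 above tumor 2 in several lists. The summed signal of 10 T and NK cell markers was 22562 on tumor 1 and 938 on tumor 2, against 885 and 848 in normal ureter. On tumor 1 it was mostly Gzma and Gzmb, with 15262 and 4168. Both tumors lay above normal in 5 of the 9 tested, and below in Cd8a, with 62.2 and 67.2, against 194 and 127. The sum of 7 mast cell markers was 107652 and 659, against 747 and 594, although the mast cell receptor Kit was above normal in both tumors, with 906 and 481, against 200 and 148. The sum of 6 neutrophil markers was 23598 and 1559, against 383 and 270. All 8 macrophage markers lay above normal on both tumor arrays, with sums of 44917 and 36895, against 10185 and 8702. The 9 measured plasma and B cell markers summed to 245076 and 161195, against 26829 and 20153. Smooth muscle and fat markers were lower, with sums of 15800 and 26161, against 53938 and 42751, over 5 muscle genes, and of 36095 and 6127, against 219855 and 240184, over 4 fat genes. The 2 measured erythroid precursor markers summed to 12.4 and 119, against 262 and 265. Among urothelial markers, those of the basal layer differed between tumors: Krt5 had 15780 on tumor 1 and 628 on tumor 2, against 3415 and 5518, and Trp63 had 10167 and 440, against 2446 and 3847. No marker was at 0 on any array. The part that these cells had in the replication genes was not tested.

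Other genes of the same process were measured beside these. Of 50 other genes of replication and nucleotide supply, 47 were tested, 0 passed, and their median difference was 0.14. In 20, or 42.6%, both tumors lay above both normal samples, against 29.4% of all genes, and in 12, or 25.5%, below, against 27.7%. Dck, which salvages deoxycytidine, had signals of 2099 and 853 in the tumors, against 249 and 329 in normal ureter (difference 2.17, SE 0.51, adjusted p = 0.135). Uhrf1, which guides methylation of newly copied DNA, had 1010 and 527 in the tumors, against 211 and 165 (difference 1.88, adjusted p = 0.124). Orc3, another subunit of the origin recognition complex, had 496 and 482 in the tumors, against 1032 and 901, the smallest p of this list, with a difference of -0.96 (SE 0.20, adjusted p = 0.121). Both samples of each group were close to each other for Orc3. Orc6 and Orc4 were also below normal on both tumor arrays, with Orc4 at -0.41. Orc2 and Orc5 had differences of 0.02 and 0.01, with overlap between groups. Top2a, which untangles the copied DNA, had a difference of 2.94 (adjusted p = 0.128) and is also counted among mitosis genes.

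Mitosis genes and regulators of the entry to S phase stood on either side of the replication genes. The 23 mitosis genes tested had a median of 1.72, with 2.06 on tumor 1 and 1.30 on tumor 2, and in 22 of them the tumors lay above both normal samples. On tumor 2 alone, 23 of 23 mitosis genes lay above both normal samples, beside 25 of 38 replication genes and 45% of all genes. Cdc20, Birc5, Mki67 and Plk1, the 4 with the smallest p, had differences of 2.87, 2.91, 2.71 and 2.22. Of the replication genes only Rrm2 reached the lowest of these, though 1 of its probe sets gave 1.00. Mcm5, at 1.90, was also above the median of the mitosis genes. The 30 tested regulators of G1 and S phase had a median of 0.14, with 13, or 43.3%, above, against 29.4% of all genes, and 7, or 23.3%, below, against 27.7%. One of the 30 passed, where 0.943% of all genes were called lower: Cdkn2c, an inhibitor of Cdk4 and Cdk6, fell by 1.99 log2 units (SE 0.18, adjusted p = 0.0425 by limma), with 1330 and 1142 in the tumors, against 5202 and 4712 in normal ureter. Without either one of the normal samples, 0 genes of the array passed. Myc, Cdk6 and Mycn differed by 1.40, 1.13 and -1.42 (adjusted p = 0.0843, 0.119 and 0.15). The difference between these lists was not tested.

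**Figure D3:**
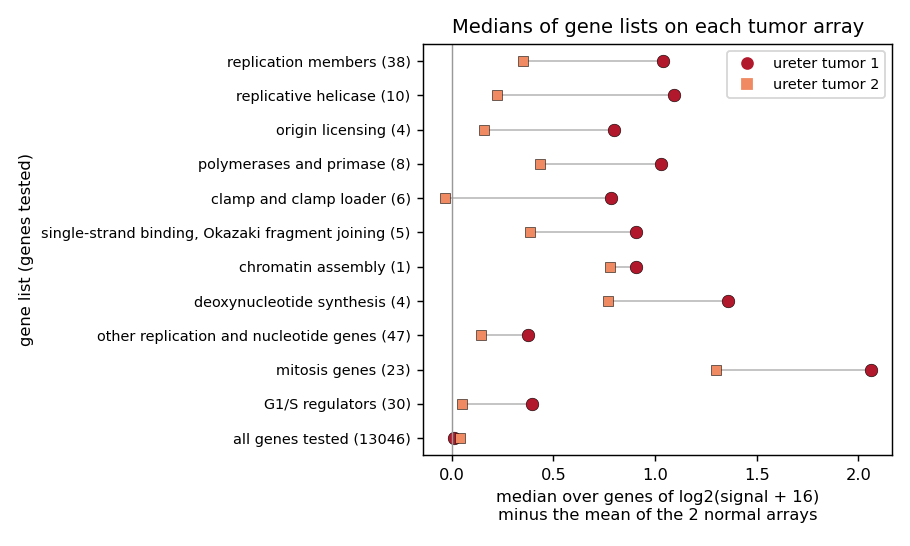
Median over the tested genes of each list of log2(signal + 16) minus the normal mean, on ureter tumor 1 (circles) and ureter tumor 2 (squares), with the number of genes in brackets. Replication genes sit at 1.04 and 0.35, between mitosis genes at 2.06 and 1.30 and all genes at 0.01 and 0.04.

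Motif matches were counted in the promoter windows of the replication genes. The choice of genes did not use promoter letters, but many of these genes are known to be transcribed by E2F factors. A high share of E2F motifs is therefore not an independent finding. RefSeq windows were found for 33 of the 40 genes, 38 windows in all. An E2F motif was in 23 of the 38, or 60.5%, against 15.6% of windows of the genes tested and 9.57% of all 32851 windows of this length. A CCAAT box was in 55.3%, against 36.9% and 37.4%. CCAAT boxes overlapped an E2F match in windows of Mcm7, Prim1 and Rfc1. The GC box, GGGCGG, which overlapped no E2F match in these windows, was in 71.1%, against 60% and 35.7%. For the windows of mitosis genes the order was the other way round, with an E2F motif in 3 of 21 and a CCAAT box in 19 of 21.

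Tested genes with an E2F match in a window, 20 in number, had a median difference of 0.84, against 0.43 for the 11 without, and this gap was not tested. Rrm2, Mcm5, Mcm3 and Cdt1, which had the highest differences, all held a match. Mcm5 held 3 E2F matches, a pair of them on overlapping letters, and 3 CCAAT boxes. Mcm3 held 3 of each, also with a pair of E2F matches on overlapping letters. Mcm6 held 5 E2F matches, the most of any window when overlapping matches are counted apart, with a difference of 0.88. Most of these lay in overlapping pairs, while Pola1 held 4 without overlap. Rfc5, Tk1 and Dut, with differences of 1.06, 1.13 and 0.99, held none in these windows. Rfc1 and Rpa3, with negative differences, held 2 and 1, and the 2 of Rfc1 overlapped. In Rrm2 a single E2F match lay near the far end of the window and a CCAAT box close to the start, as its printed sequence shows. A match describes letters and not binding, and a window without one says nothing of the factor.

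**Figure D4:**
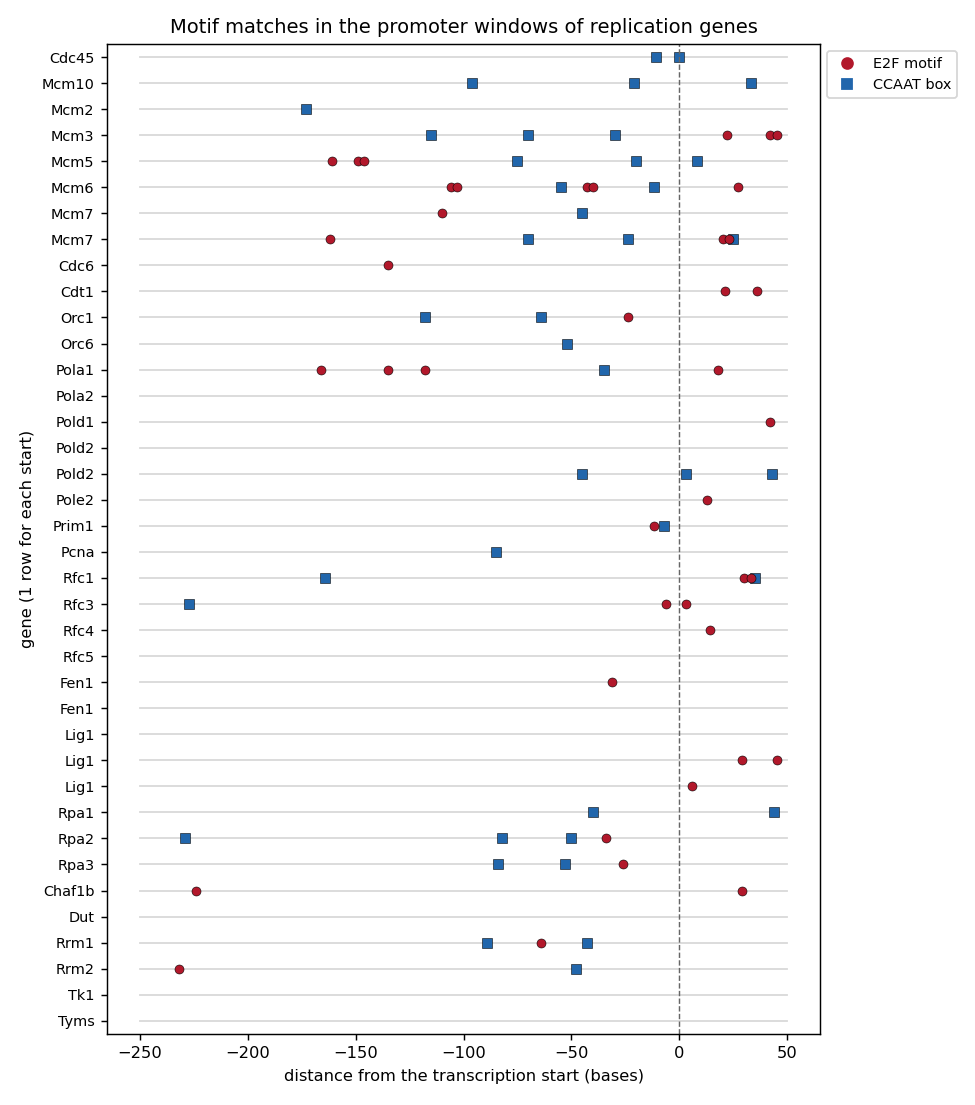
Positions of E2F motif matches (circles) and CCAAT boxes (squares) in the 38 promoter windows of 33 replication genes, as distance in bases from the transcription start (dashed line), with rows grouped by role. An E2F match is in 23 of the 38 windows and a CCAAT box in 21.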

How the data were processed

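The authors deposited a linear intensity for each probe set. The submitters' processing notes name MAS5, and nothing used here gives its version, detection calls or filters. Per the labels' protocols, Trizol RNA was column-purified and 6 ug was labelled. Each array's mean after trimming 2% at each end was 500, so signals are relative to the rest of their array. Control probe sets (64) were left out. Symbols came from the platform annotation, updated for 34741 of 34945 single-gene probe sets, while 932 had several genes and 9160 none here.

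Each gene was read from its brightest single-gene probe set. Genes whose mean reached the 40th percentile, a signal of 54.6, were tested with limma 3.58.1 on log2(signal + 16) (R 4.3.3, intensity trend, two-sided, Benjamini-Hochberg over 13046 genes, threshold 0.05, 2 residual and 2.11 prior degrees of freedom). The added 16 makes differences of dim genes smaller than their true ratio. The fit was run on simulated data with the same spread in both groups. The tumor arrays here differed more from each other than the normal ones, so that run does not check these p-values. The smallest p of an exact permutation test with 2 against 2 arrays is 0.333, and the number of arrays limits precision. Of the probe sets read, 8 have names that mark probes shared between transcripts.

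Members, lists and tests were chosen with earlier results of these data known. The naming rule takes all members, with array values for the 12 smallest p and the brightest of each role, up to 4 genes of each other list, and 4 promoters. Array values of other members, and differences of Orc2, Orc4 and Orc5, were added after their values were seen. Alternatives tried were quantile normalization, pseudocounts of 1 and 64, median centring, no filter or one at the 60th percentile, other uses of probe sets, other prior variances, the replicate number as a block and leaving out each array. Figures used matplotlib 3.10.9.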

Additional observations from a re-analysis of the deposited data

How the results depend on the processing

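With all 4 arrays, 0 replication genes passed under any alternative, and the smallest adjusted p ran from 0.0672 (every probe set) to 0.134 (replicate block). The median difference kept its sign under every alternative, with a range of 0.35 to 1.04 over left-out arrays, the lowest without tumor 1. Over left-out arrays, 0 to 25 genes passed as higher and 0 to 2 as lower. At an unadjusted p under 0.05, 1 to 26 were higher and 0 to 2 lower, and 3 to 7 lay below both normal samples. With every probe set tested, 20 of 65 probe sets were higher at that p and 42 lay above both normal samples, since genes are then counted more than once. Without a filter 1 was lower at that p, Orc1. Under median centring 0 lay below.

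Replicate numbers name no shared animal, and deviations of same-numbered arrays were not correlated over genes (r = 0.0391). With the replicate block, 5 genes were higher at an unadjusted p under 0.05.

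Of 563 gene differences under alternatives, 13 changed sign. No gene had passed with all arrays. Sign changes without tumor 1 included -0.28 for Gins1, -0.10 for Mcm4, -0.078 for Pcna and -0.37 for Rfc3. These genes stayed positive without tumor 2, at 1.11, 1.27, 0.77 and 1.00. Pole2 was 0.20 without tumor 1 and 1.58 without tumor 2. Gmnn became 0.11 under median centring, and averaging probe sets gave Cdc45 -0.16 and Pole2 -0.21, as a dim probe set of each had a negative difference. Over left-out arrays the ranges were -0.28 to 1.11 for Gins1, -0.033 to 0.50 for Mcm2, -0.10 to 1.27 for Mcm4, -0.078 to 0.77 for Pcna, -0.15 to 0.33 for Pold1, -0.034 to 0.41 for Pold2, -0.37 to 1.00 for Rfc3 and -0.18 to 0.00044 for Gmnn. Over all genes, 187 passed, and 35 did under median centring, 2 without the intensity trend, 0 with the replicate block, 117 with averaged probe sets, 473 with every probe set and 0 to 5502 over left-out arrays, with 884 and 889 genes at an unadjusted p under 0.05 where 0 passed without a normal sample. The array signal of Orc1 and Tyms, near background, limits what can be said of them.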
